A study of Mus musculus with 19 samples.

Results

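Visible liver tumours of mice whose transgene joins c-Jun to Fra2, both AP-1 proteins, were compared with normal liver of control littermates. All animals were adult C57BL/6 males whose doxycycline had been withdrawn at 3 weeks of age, which switches the transgene on in mutants and leaves controls without it, and livers were taken 9 months later. The members are the 4 tumour libraries of the series, found by their titles among its 19 libraries: 2 tumours of mutant 1, 1 of mutant 2 and 1 of mutant 3. They stand against 3 controls of the same age and treatment. Counts of both tumours of mutant 1 were added up, which leaves 3 animals on each side. Where tumours are set beside liver without visible tumour, called tumour-free tissue here, that tissue came from the same 3 mutants. Neither the promoter that drives the transgene nor the founder line is given in the sources used here. The numbers of controls are names only. Per the labels, a mutant's number ties its tumour to its tumour-free tissue. The values did not follow that tie throughout, since 9 genes that were high in the tumour of mutant 3 alone among the tumours stood higher in the tumour-free tissue of mutant 1 than in that of mutant 3. Tests without the animal as a block do not use the tie. The 3 animals of a group are separate mice, so the spread between them is biological, but 3 animals a group are few.

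AP-1 factors bind DNA as pairs of a Jun and a Fos family protein, and Fra2, encoded by Fosl2, belongs to the Fos family. They pass growth, stress and inflammatory signals on to genes. Liver cells of the main type, hepatocytes, make plasma proteins, burn and store fat, clear drugs and ammonia and make bile acids, and they divide their tasks between cells near the portal vein and cells near the central vein. Hepatocellular tumours are known for losing such functions while they gain proliferation, fetal or foreign epithelial genes and a new vessel bed.

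Levels are CPM, the share of a library's counts scaled up to a common total after TMM scaling, given for controls 1 to 3 and then for tumour 1 of mutant 1, tumour 2 of mutant 1, mutant 2 and mutant 3, in that order. Log2 changes come from edgeR's quasi-likelihood test. The standard error after each was worked back from the change and that test's F statistic. It therefore restates the test and is no separate measure of the spread between animals. A gene is called when its Benjamini-Hochberg adjusted p over all tested genes is under 0.05, and "rose" and "fell" are used of called genes only. Where a call is given as lost without an animal, the adjusted p was 0.05 or more when that animal was left out. Beside a list, counts given without an animal are the calls in that direction in its absence, printed for counts above 0 where they differ over 1.5-fold from the full count. Counts of 0 went to at most 1 with 1 animal left out, save the B and plasma cell genes (2 higher without mutant 2). Leaving out mutant 1 removes both of its tumours. Total counts per library ran from 19869241 to 20879281 in controls and from 19498755 to 21587928 in tumours. The RNA integrity numbers of the 9-month samples ran from 7.2 to 9.1 per the labels. These samples are bulk tissue, so fewer cells of a type and less RNA per cell cannot be told apart in any result that follows.

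The transgene's own factors came first. Fosl2 (chr5:32135801-32157842, GRCm38) stood at 21.2, 13.6 and 10.0 CPM in controls and at 424, 790.5, 754 and 639 CPM in tumours (log2 change 5.50 ± 0.363, adjusted p = 0.000417). Every tumour lay far above every control. Jun (chr4:95049034-95052222), which encodes c-Jun, stood at 413, 43.9 and 24.5 CPM in controls and at 349.8, 661, 611 and 436 CPM in tumours (log2 change 1.71 ± 1.03, adjusted p = 0.268). Control 1 alone overlapped the tumours, and without control 1 Jun passed the test (adjusted p = 0.00826). Control 1 also held Fos at 711 CPM and Egr1 at 1407 CPM, against 4.05 and 10.2 CPM in control 2, and the part of these early response genes in its Jun level was not tested. A count per gene does not separate transcripts of the transgene from those of the animal's own Jun and Fosl2. Among 14 AP-1 family genes, 2 rose (1 without control 3 or mutant 3) and none fell, the second being Jdp2, a dimerisation partner and repressor of AP-1 (log2 change 2.03 ± 0.522, adjusted p = 0.0291, lost without control 2, control 3 or mutant 3).

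The hepatocyte genes Alb and Hnf4a were well expressed in every library. Control liver expresses them too, so they cannot check the label of mostly transformed hepatocytes. Of other hepatocyte genes given below, Serpina1c and Apoa1 fell and Cps1 was not called. Albumin (Alb) took 7.92% ± 0.210 (SD, n = 3) of all counts in controls and 6.20% ± 1.32 (SD, n = 3) in tumours (difference -1.72 percentage points, exact two-sided permutation test, p = 0.2, where 3 against 3 cannot go below 0.1). The tumour-free tissue of the mutants stood lower than both, at 3.24% ± 0.238 (SD, n = 3), a value given without a test. Hnf4a, the master regulator of hepatocyte identity, was at 733, 395 and 546 CPM in controls and 468, 642, 566 and 618 CPM in tumours, and the groups overlapped (log2 change 0.07 ± 0.274, adjusted p = 0.876). Of the marker list for carry-over of pancreas, gut and muscle only Cela1 passed the filter on low counts, and it was not called.

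Of 14332 tested genes, 3593 (25.1%) were called, 1971 higher (13.8%) and 1622 lower (11.3%), and 2723 of the calls were at least 2-fold. The median log2 change of all tested genes was 0.01. Scaling by library size alone moved that median to 0.48 and the split to 4664 higher and 818 lower. With 1 animal left out the number of calls lay between 1419 and 3566. It was lowest without control 3, and 1973 and 2188 genes were called without control 1 and control 2. Counts of list members below are to be read against the shares of 13.8% and 11.3%. Lists were tallied with no set test of their own.

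**Figure D1:**
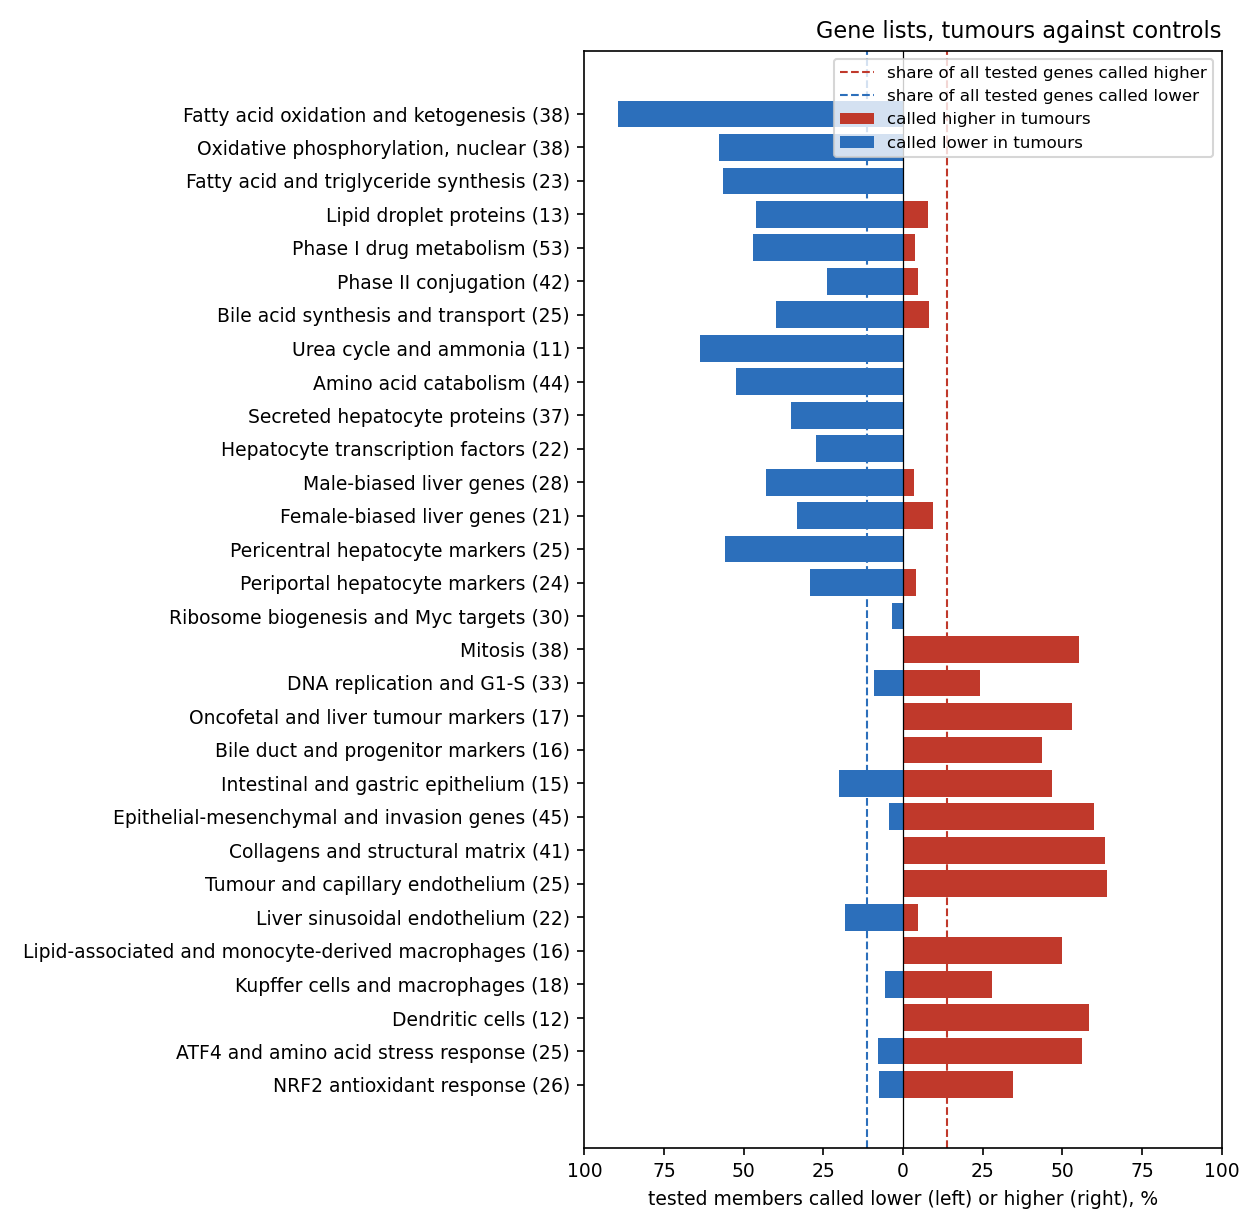
Share of tested members of 30 gene lists called lower (blue, left) or higher (red, right) in tumours against controls, in percent of tested members (number in brackets), with dashed lines at the shares of all tested genes called higher (13.8%) and lower (11.3%). Most lists of hepatocyte metabolism lie on the left, with 34 of 38 genes of fatty acid oxidation lower. Lists of matrix, capillary endothelium and mitosis lie on the right. Gut and stomach epithelium has 7 of 15 higher and 3 lower, and sinusoidal endothelium 1 of 22 higher and 4 lower.

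The genes with the largest rises were nearly silent in control liver. Tcam1 (a testicular cell adhesion molecule) went from 0.247, 0.491 and 0.362 CPM in controls to 33.4, 50.1, 172 and 148 CPM in tumours (log2 change 8.35 ± 0.723, adjusted p = 0.00112). Mutants 2 and 3 were highest and the groups did not overlap. Vil1, villin of the intestinal brush border, went from 1.36, 0.798 and 0.905 to 122, 470.1, 558 and 46.1 CPM (log2 change 8.22 ± 1.08, adjusted p = 0.0044), lowest in mutant 3. Cdhr2, a cadherin of brush border microvilli, went from 0.555, 0.491 and 0.121 to 47.4, 67.8, 156 and 80.5 CPM (log2 change 7.97 ± 0.637, adjusted p = 0.000797). Hkdc1, a hexokinase that is low in adult liver, stood at 0.37, 0.307 and 0.543 CPM in controls and 30.7, 41.4, 94.3 and 139.7 CPM in tumours (log2 change 7.78 ± 0.656, adjusted p = 0.000998), again highest in mutants 2 and 3.

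Mutants 2 and 3 were highest also for Flnc, a filamin of muscle that crosslinks actin, at 0.617, 1.04 and 0.422 CPM in controls and 24.4, 34.6, 193 and 315 CPM in tumours (log2 change 8.01 ± 1.07, adjusted p = 0.00451). Slc1a1, a carrier for glutamate and cysteine, was at 0.123, 0.307 and 0.0603 CPM in controls and 7.52, 6.11, 28.5 and 123 CPM in tumours (log2 change 8.30 ± 1.45, adjusted p = 0.0106, lost without control 3), far highest in mutant 3. Slc7a11, the cystine importer, was at 0.247, 0.798 and 0.121 CPM in controls and 10.7, 6.69, 72.7 and 343 CPM in tumours (log2 change 8.50 ± 1.67, adjusted p = 0.0153, lost without control 1 or control 3). Meltf, melanotransferrin, rose from at most 1.04 CPM in controls to 40.8, 53.4, 64 and 259.6 CPM (log2 change 7.97 ± 1.08, adjusted p = 0.00475). Styk1, a receptor-like kinase, rose from at most 0.798 CPM to 36.5, 54.2, 52.5 and 247 CPM (log2 change 7.87 ± 0.99, adjusted p = 0.00378), and mutant 3 was again far above the other tumours.

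Several of the 15 largest rises had 1 to 3 counts in all controls together, so their size is given as a ratio of pooled levels. All tumour libraries were pooled, so mutant 1 entered with both of its tumours and animals were not weighted equally. The intervals cover counting error and not the spread between animals. Lipn, an acid lipase, had 1 count in controls and 983 in tumours (522-fold higher, 95% counting interval 93.4 to 20625). Scel, sciellin of the cornified envelope, had 1 and 679 (360.3-fold higher, 95% counting interval 64.5 to 14253). Tceal5 had 1 and 573 (304-fold higher, 95% counting interval 54.4 to 12031). Bmp8a, a bone morphogenetic protein, had 3 and 1596 (282-fold higher, 95% counting interval 96.4 to 1370.5). Doc2a, a calcium sensor of secretion, was 201-fold higher, 95% counting interval 68.5 to 975. Psca, prostate stem cell antigen, was 411-fold higher, 95% counting interval 141 to 1997. Psca spread most, with 6.29, 43.8, 44.4 and 1.3 CPM in the tumours, and its call was lost without any 1 of the 3 controls. The other 5 of these genes were called whichever animal was left out.

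Promoter windows are shown for the genes among the 15 largest rises and the 15 largest falls that held the classical AP-1 letters TGANTCA, where N is any base. These were Lipn and Scel among the rises (2 of 12 with a window in the RefSeq promoter table) and Sult2a8 and Igfbp2, given below, among the falls (2 of 9). The windows run from 250 bases before to 50 after the start in GRCm38.p6. Capitals mark the match where the printed window holds one, and the searched letters are the same pattern on both strands.
Lipn (chr19:34067108-34067407, plus strand): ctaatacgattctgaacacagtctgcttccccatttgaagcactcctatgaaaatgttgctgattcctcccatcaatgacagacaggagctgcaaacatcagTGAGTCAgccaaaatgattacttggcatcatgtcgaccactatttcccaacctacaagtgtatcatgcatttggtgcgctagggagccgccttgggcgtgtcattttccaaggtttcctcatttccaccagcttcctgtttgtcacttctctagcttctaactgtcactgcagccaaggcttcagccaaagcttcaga
Scel (chr14:103513091-103513390, plus strand): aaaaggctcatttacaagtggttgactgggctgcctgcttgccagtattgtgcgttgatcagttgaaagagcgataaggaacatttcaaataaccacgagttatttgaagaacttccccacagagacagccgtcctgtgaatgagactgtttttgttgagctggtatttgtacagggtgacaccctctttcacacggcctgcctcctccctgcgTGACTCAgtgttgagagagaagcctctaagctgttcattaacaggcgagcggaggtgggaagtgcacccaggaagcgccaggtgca
Sult2a8 (chr7:14438502-14438801, minus strand): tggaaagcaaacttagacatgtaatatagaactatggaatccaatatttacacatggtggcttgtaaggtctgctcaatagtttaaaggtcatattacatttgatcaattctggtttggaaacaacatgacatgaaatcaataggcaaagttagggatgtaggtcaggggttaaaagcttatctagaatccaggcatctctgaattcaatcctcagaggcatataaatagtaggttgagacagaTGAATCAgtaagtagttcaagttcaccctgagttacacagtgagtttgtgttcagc
Igfbp2 (chr1:72824230-72824529, plus strand): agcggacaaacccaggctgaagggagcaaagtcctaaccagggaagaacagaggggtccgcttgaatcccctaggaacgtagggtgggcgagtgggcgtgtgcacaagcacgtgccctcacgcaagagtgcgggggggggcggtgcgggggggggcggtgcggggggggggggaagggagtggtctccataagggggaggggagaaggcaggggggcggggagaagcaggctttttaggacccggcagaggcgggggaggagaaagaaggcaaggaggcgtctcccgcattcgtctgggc
The match lies at position -148 from the start of Lipn, -36 from that of Scel and -6 from the start in the printed window of Sult2a8. Another window of Sult2a8 (chr7:14446538-14446837, minus strand) holds no match and is not printed. The Igfbp2 window printed here holds no match. The match of Igfbp2 lies at position -39 in another of its windows (chr1:72825137-72825436, plus strand), which is not printed. Of 10792 tested genes with a window, 6.76% (729) held TGANTCA, against 10.1% (149 of 1479) of called higher genes and 8.47% (106 of 1251) of called lower genes. Among genes at least 4-fold changed the shares were 13.7% (82 of 600) of those higher and 11.6% (38 of 328) of those lower. The related cyclic AMP response letters TGACGTCA do not contain TGANTCA. They were held by 3.41% of all these genes, against 2.43% of called higher and 3.20% of called lower genes. For both patterns a gene counted if any of its windows held a match, so genes with several windows had more chances. A match describes letters in a window and no binding was measured.

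**Figure D2:**
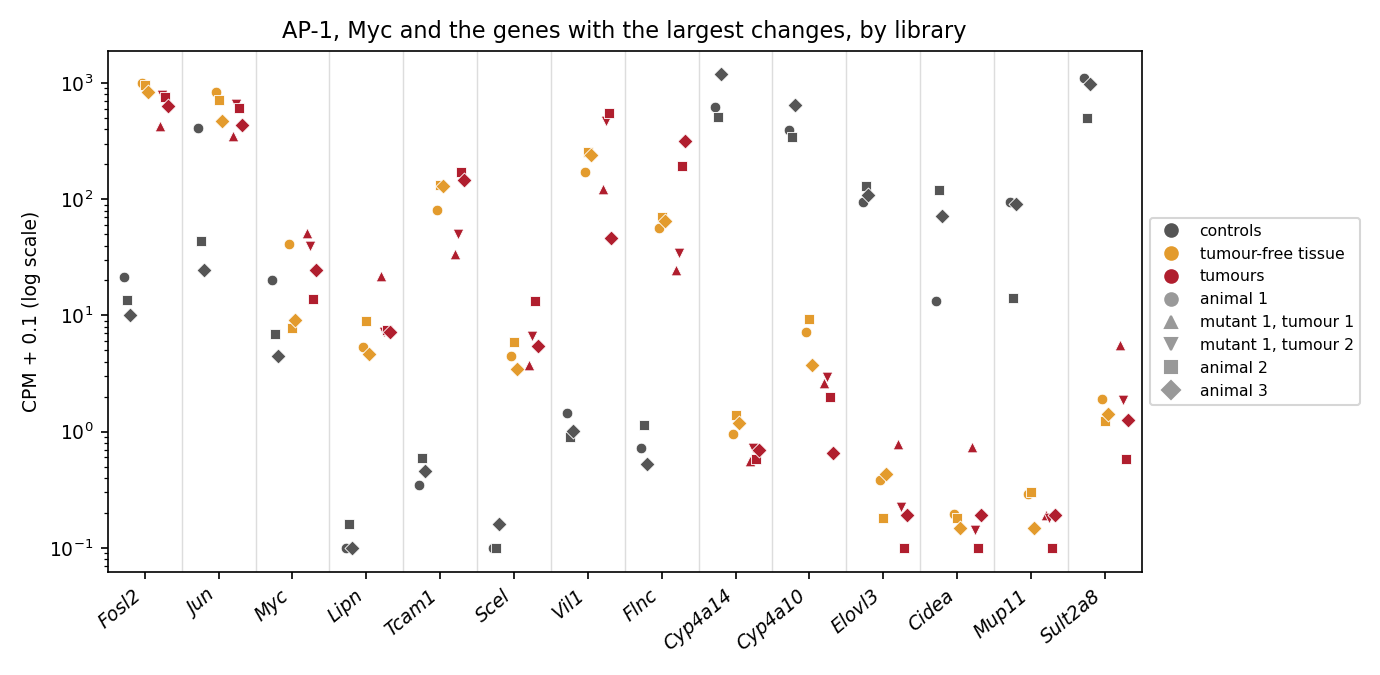
Level of Fosl2, Jun, Myc and 11 genes with large changes in each library, as CPM + 0.1 on a log axis, with controls in grey, tumour-free tissue in orange and tumours in red, and marker shape for the animal. Fosl2 lies at 10.0 to 21.2 CPM in controls and at 424 CPM or more in tumours, and Cyp4a14 lies at 506 CPM or more in controls and under 1 CPM in tumours.

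The 15 largest falls took in genes of fatty acid metabolism, such as Cyp4a14, Cyp4a10 and Elovl3, and genes of other roles. Cyp4a14 (chr4:115486200-115496142), a fatty acid hydroxylase and standard target of the fasting receptor PPAR alpha, went from 620.3, 506 and 1186 CPM in controls to 0.456, 0.62, 0.485 and 0.602 CPM in tumours (log2 change -10.45 ± 0.517, adjusted p = 0.000192). Cyp4a10, its close relative, went from 391, 346 and 644 to 2.51, 2.85, 1.9 and 0.556 CPM (log2 change -8.03 ± 0.685, adjusted p = 0.000915). Every tumour lay far below every control for both genes. Elovl3, an elongase of very long fatty acids, went from 95.1, 129 and 109 to 0.684, 0.124, 0 and 0.0927 CPM (log2 change -9.10 ± 0.768, adjusted p = 0.0011). Cidea, which fuses lipid droplets, went from 13.3, 121 and 71.5 to 0.638, 0.0413, 0 and 0.0927 CPM (log2 change -8.61 ± 1.21, adjusted p = 0.00533). Sult2a8, a sulfotransferase for bile acids, went from 1098, 497 and 977 to 5.42, 1.78, 0.485 and 1.16 CPM (log2 change -8.91 ± 0.923, adjusted p = 0.00193).

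Further large falls were Igfbp2, a secreted binding protein of insulin-like growth factors, from 217, 125 and 261 to 1.78, 1.65, 0.323 and 0.371 CPM (log2 change -7.85 ± 0.807, adjusted p = 0.00201). Wfdc21, a secreted whey acidic protein, changed by -8.44 ± 0.489. Olig1, a transcription factor better known from glia, had 591 counts in controls and none in tumours (at least 371-fold lower against a floor of 3 counts over the group). Hsd3b5, a male-specific steroid dehydrogenase, had 626 and none (at least 393-fold lower), but control 2 was at only 1.17 CPM and the call was lost without control 1, control 3, mutant 2 or mutant 3. Rfx4 was 548-fold lower, 95% counting interval 97.6 to 21732, and Slc22a28 was 222-fold lower, 95% counting interval 75.3 to 1080.3. The major urinary proteins Mup7, Mup11, Mup14 and Mup17, pheromone carriers made by male liver, were also among these 15. Mup11 was at 94.9, 14.2 and 90.1 CPM in controls and 0.0911, 0.0826, 0 and 0.0927 CPM in tumours (log2 change -9.90 ± 1.12, adjusted p = 0.00286). Mup genes are near-identical copies and reads may be split among them, so single Mup values are uncertain. The call of Mup7 was lost without mutant 2 or mutant 3.

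Genes of fat burning were lower in the tumours almost without exception. Fatty acid oxidation turns fatty acids into acetyl-CoA and, in fasting, ketone bodies. Of 38 tested genes 34 fell and none rose (median log2 change -1.58, against 0.01 over all genes), with 25 to 34 with 1 animal left out. Fabp1, the fatty acid carrier of hepatocytes, went from 6254, 10106 and 6218 CPM to 152, 37.1, 17.6 and 36.2 CPM (log2 change -7.26 ± 0.773, adjusted p = 0.00158). Acaa1b, a peroxisomal thiolase, went from 2119, 3298 and 1916 to 68.7, 78.1, 52.9 and 68.1 CPM (log2 change -5.23 ± 0.359, adjusted p = 0.000482), with 4 tumours close together. Eci2 changed by -2.43 ± 0.174, the carnitine carrier Slc25a20 by -1.97 ± 0.166 and Cpt1a, the gate of mitochondrial import, by -1.21 ± 0.303 (lost without control 1 or control 3). Ppara, the receptor that drives this programme, was at 33.3, 29.6 and 35.4 CPM in controls and 9.89, 15.2, 20.5 and 16.4 CPM in tumours (log2 change -0.98 ± 0.208, adjusted p = 0.0156, lost without control 1 or control 3).

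Genes of fat synthesis and storage were lower too. Of 23 genes of fatty acid and triglyceride synthesis 13 fell and none rose (7 without control 2 or control 3). Elovl5 and Fads2, which extend and desaturate polyunsaturated fatty acids, changed by -3.51 ± 0.614 and -2.49 ± 0.283 on the log2 scale, Lpin2, a phosphatase of triglyceride synthesis, by -2.72 ± 0.277 and Thrsp, a lipogenic switch protein, by -4.66 ± 0.869. Scd1, the main desaturase of adult liver, went from 24111, 21338 and 12329.5 to 4662, 8035, 3229.6 and 1944 CPM (log2 change -2.31 ± 0.527, adjusted p = 0.0199, lost without control 1 or control 2). Its relative Scd2, prominent in fetal liver and brain, rose from 6.85, 9.33 and 8.14 to 74.3, 75.3, 299.7 and 122 CPM (log2 change 4.36 ± 0.564, adjusted p = 0.00363). Fasn, fatty acid synthase, was at 2385, 2865 and 1351 CPM in controls and 338, 385, 107 and 982 CPM in tumours and did not pass (log2 change -2.18 ± 0.777, adjusted p = 0.0848). Of 13 lipid droplet genes 6 fell and 1 rose (higher: 2 without mutant 3). The coat protein Plin2 went from 717, 887 and 970.2 to 193, 176, 202 and 237 CPM (log2 change -2.04 ± 0.238, adjusted p = 0.00206). G0s2, a lipase inhibitor, changed by -4.02 ± 0.294, and the 1 that rose was Plin3 (1.66 ± 0.248).

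Among 38 nuclear genes of oxidative phosphorylation, the respiratory chain and ATP synthase, 22 fell and none rose, with a median of -0.83. The changes were small and even: Ndufb8 of complex I changed by -1.13 ± 0.216, Cyc1 of complex III by -1.00 ± 0.176 (lost without control 3), Uqcrc2 by -0.89 ± 0.188 (lost without control 1 or control 3) and Ndufb5 by -0.97 ± 0.196 (lost without control 3). Ndufb8 stood at 88.3, 133 and 111 CPM in controls and 68, 48.4, 42.4 and 50.9 CPM in tumours, with no overlap. The count depended on the animals and on the scaling: 1 without control 3, 7 without mutant 2, 8 without control 1, 9 without control 2, and 2 were lower when libraries were scaled by size alone.

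Many genes of drug and bile acid handling were lower. Of 53 phase I genes 25 fell and 2 rose (lower: 13 without control 3, 14 without control 1, 16 without control 2; higher: 1 without control 1, control 2 or control 3, 4 without mutant 1). Of 42 phase II conjugation genes 10 fell (lower: 17 without mutant 3) and 2 rose, Gstp1 and Gsta2 (higher: 0 without control 1, control 2 or control 3). Cyp2c54 went from 338, 335 and 345 to 6.15, 9.05, 2.63 and 0.834 CPM (log2 change -6.48 ± 0.845, adjusted p = 0.00413). Mutants 2 and 3 were lowest, as they were for Cyp2c50 (9.3, 9.46, 0.525 and 1.07 CPM in tumours). Adh1, alcohol dehydrogenase, changed by -1.89 ± 0.263, the carboxylesterases Ces1c and Ces1e by -2.54 ± 0.321 and -3.30 ± 0.432, and the glucuronosyltransferases Ugt3a1 and Ugt2b1 by -7.33 ± 0.522 and -2.78 ± 0.26. Cyp2a4, which is higher in female liver and hydroxylates steroids, rose instead, from 16.2, 103 and 40.5 to 4761, 365, 1391 and 3561 CPM (log2 change 5.54 ± 0.82, adjusted p = 0.00531). It shares sequence with Cyp2a5, so reads may be split. The other phase I gene that rose was Cyp4v3. Cyp3a11, a major drug oxidase, was at 2487, 2519.6 and 1813 CPM in controls and 1135, 1614, 5589 and 1329.7 CPM in tumours with overlap (log2 change 0.29 ± 0.588, adjusted p = 0.745), high in mutant 2.

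Of 25 genes of bile acid synthesis and transport 10 fell and 2 rose (lower: 5 without control 3; higher: 1 without control 1, control 2, control 3 or mutant 2). Slc10a1, the uptake carrier for bile acids from blood, went from 1125, 739.8 and 1017 to 66.7, 145, 142 and 84.8 CPM (log2 change -3.10 ± 0.306, adjusted p = 0.00121). Abcb11, the export pump into bile, went from 571, 437 and 550.4 to 92.5, 91.9, 98.8 and 174 CPM (log2 change -2.08 ± 0.309, adjusted p = 0.00449). Cyp27a1 of the alternative synthesis route changed by -2.13 ± 0.261. Cyp8b1, which sets the make-up of the bile acid pool, changed by -6.36 ± 1.27 (lost without control 3 or mutant 3). Both genes that rose export bile acids back to blood: Slc51b, a subunit of the basolateral exporter, went from 0.555, 0.982 and 0.422 to 12.3, 14.3, 40.9 and 32.1 CPM (log2 change 5.46 ± 0.554, adjusted p = 0.00153). Abcc4 went from 9.62, 17.7 and 11 to 26.6, 37.6, 97.8 and 309.6 CPM (log2 change 3.53 ± 0.839, adjusted p = 0.0272, lost without control 1, control 2, control 3 or mutant 2). Cyp7a1, the rate-limiting enzyme of bile acid synthesis, was at 262, 72.8 and 123 CPM in controls and 116, 142, 5.21 and 12.1 CPM in tumours, low only in mutants 2 and 3 (log2 change -1.63 ± 1.19, adjusted p = 0.356).

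Genes of nitrogen handling were lower as well. Of 11 genes of the urea cycle and ammonia handling 7 fell and none rose (3 without control 3, 4 without control 1). Otc, ornithine transcarbamylase, went from 721, 624 and 674 to 26.3, 39, 6.26 and 23 CPM (log2 change -5.01 ± 0.627, adjusted p = 0.00297). Ass1, argininosuccinate synthase, changed by -1.59 ± 0.272. Cps1, the entry enzyme, overlapped between groups at 2624, 1278 and 2343 CPM in controls and 1292, 2138, 264 and 939 CPM in tumours (log2 change -1.08 ± 0.65, adjusted p = 0.262). Of 44 genes of amino acid catabolism 23 fell and none rose (13 without control 3). Among them were Kmo of tryptophan breakdown (-2.08 ± 0.25), Bckdhb of branched-chain amino acid breakdown (-1.82 ± 0.183), Grhpr (-1.57 ± 0.201) and Prodh, proline dehydrogenase (-3.82 ± 0.636).

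Genes of secreted hepatocyte proteins were lower in part. Of 37 genes 13 fell and none rose (5 without control 3, 6 without control 1 or control 2, 8 without mutant 3). Serpina1c, an antitrypsin of a family of near-identical copies, changed by -2.78 ± 0.361, and the lipoprotein genes Apoa1 and Apoa2 by -2.07 ± 0.338 and -2.55 ± 0.357. C8g, a chain of complement component C8, had a larger fall than these, from 489.6, 713 and 546 to 6.52, 7.6, 8.44 and 6.86 CPM (log2 change -6.28 ± 0.282, adjusted p = 0.000128), with the 4 tumours between 6.52 and 8.44 CPM. Of 27 complement and coagulation genes C8g, Masp2 and C1ra fell and none rose (1 without control 3, 7 without mutant 1). Among 22 hepatocyte transcription factors 6 fell and none rose (3 without control 1). Nr1i3, the xenobiotic receptor CAR, went from 558, 1009 and 761 to 28.3, 37.7, 22.7 and 43.6 CPM (log2 change -4.54 ± 0.378, adjusted p = 0.000728). The bile acid receptor Nr1h4 changed by -1.33 ± 0.211 and the oxysterol receptor Nr1h3 by -1.07 ± 0.182. The others that fell were Nr1i2, Cebpb and Ppara. Of 28 male-biased genes 12 fell and 1 rose, Gstp1, and of 21 female-biased genes 7 fell and 2 rose, Rtn4 and Cyp2a4, so both lists had more members lower than higher. For male-biased genes the lower calls numbered 8 to 16 with 1 animal left out, and for female-biased genes 4 without control 2. The higher calls numbered 0 without control 2 or control 3, 2 without mutant 2 for male-biased genes, and 1 without control 1, control 2 or control 3, 5 without mutant 3 for female-biased genes.

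Zonation markers were examined because hepatocytes near the central vein depend on Wnt signals. Of 25 pericentral markers 14 fell and none rose (median -2.13, 10 to 20 with 1 animal left out). Of 24 periportal markers 7 fell and 1 rose (median -1.21, lower calls: 2 without control 1, control 2 or control 3; higher calls: 2 without control 2, 3 without mutant 1). The 2 lists were not tested against each other. Glul, glutamine synthetase of the last pericentral cell layer, went from 991, 1086 and 1082 to 166, 219, 87.8 and 45.8 CPM (log2 change -3.26 ± 0.53, adjusted p = 0.0064), with mutants 2 and 3 lowest. Of 15 Wnt and beta-catenin targets 5 fell (3 without control 2 or control 3, 8 without mutant 1), and 3, Dkk3, Ccnd1 and Cd44, rose (1 without control 1 or control 2). Sp5, a direct Wnt target, went from 2.47, 3.87 and 2.65 to 0.0456, 0.165, 0.0404 and 0.0463 CPM (log2 change -5.27 ± 0.522, adjusted p = 0.00121). Nkd1, a feedback inhibitor of Wnt signalling, changed by -1.93 ± 0.283, and the ubiquitin ligase Rnf43 by -1.26 ± 0.216. Axin2 stood at 13, 9.33 and 11.5 CPM in controls and 4.28, 5.54, 1.58 and 3.15 CPM in tumours (log2 change -1.78 ± 0.412, adjusted p = 0.0206, lost without control 1, control 2 or control 3). Lgr5, a stem cell receptor, was at 7.65, 6.44 and 6.39 CPM in controls and 4.01, 3.22, 0.0808 and 0.649 CPM in tumours (log2 change -2.18 ± 1.03, adjusted p = 0.167). Cyp2e1, a pericentral ethanol oxidase, was at 11778, 7011 and 10883 CPM in controls and 1005, 1112, 41.8 and 119 CPM in tumours (log2 change -4.59 ± 1.26, adjusted p = 0.0422, lost without control 1, control 2, control 3 or mutant 3). Mutants 2 and 3 were lowest for Glul, Lgr5 and Cyp2e1 alike. The periportal gene that rose was Cdh1, E-cadherin, from 6.23, 5.03 and 6.15 to 221, 233, 459.8 and 234 CPM (log2 change 5.73 ± 0.378, adjusted p = 0.000417).

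Proliferation genes were higher from a low base. Of 38 mitosis genes 21 rose and none fell (median 1.81). Top2a, a topoisomerase of dividing cells, went from 1.17, 3.19 and 1.09 to 8.93, 11.6, 11.3 and 7.64 CPM (log2 change 2.43 ± 0.462, adjusted p = 0.0106). Hmmr, a spindle protein, went from 0.432, 0.552 and 0.121 to 2.83, 2.19, 3.96 and 3.29 CPM (log2 change 3.13 ± 0.544, adjusted p = 0.0076). Mki67, the standard proliferation marker, was at 1.97, 4.11 and 0.905 CPM in controls and 12.7, 11.7, 9.86 and 8.66 CPM in tumours (log2 change 2.14 ± 0.508, adjusted p = 0.0229, lost without control 1). Every tumour lay above every control, and control 2 was the highest control for all 3 genes. The count depended on the controls: 2 without control 1, 3 without control 3, and 1 rose without both animals numbered 1. Birc5, survivin, was at 0.987, 4.97 and 1.63 CPM in controls and 3.14, 3.64, 3.6 and 4.31 CPM in tumours and overlapped (log2 change 0.58 ± 0.576, adjusted p = 0.491).

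Of 33 genes of DNA replication and the G1-S step 8 rose (higher: 1 without control 3, 2 without control 1, 4 without mutant 1) and 3 fell. Mcm6 of the replicative helicase rose from 5.37, 6.81 and 4.52 to 16.9, 25.4, 18.7 and 29.6 CPM (log2 change 2.07 ± 0.257, adjusted p = 0.00259). Its loader Cdt1 changed by 1.79 ± 0.337 (lost without control 3). Ccnd1, cyclin D1, was at 37.6, 30.7 and 29 CPM in controls and 217, 319, 71.8 and 85 CPM in tumours (log2 change 2.15 ± 0.533, adjusted p = 0.0295, lost without control 1, control 2 or control 3), highest in the tumours of mutant 1. Those that fell included Mcm10 (-3.47 ± 0.388) and Tk1, thymidine kinase (-2.10 ± 0.183), with Tk1 at 22, 24.2 and 19.4 CPM in controls and 4.47, 6.36, 4.73 and 5.0 CPM in tumours.

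Myc, which the series title names, was at 20.3, 6.81 and 4.4 CPM in controls and 51.4, 39.3, 13.7 and 24.7 CPM in tumours and did not pass (log2 change 1.42 ± 0.675, adjusted p = 0.172; adjusted p from 0.0349 to 0.425 over the alternatives). Control 1 overlapped the tumour of mutant 2. Without both animals numbered 1 it passed (adjusted p = 0.047), and the part of the early response genes of control 1 was not tested. Of 13 genes of the Myc, Max and Mlx network none rose and 1 fell, Mycl (log2 change -1.61 ± 0.458, adjusted p = 0.0409, lost without control 1, control 2, control 3, mutant 1 or mutant 3; lower: 0 without control 1, control 2, control 3, mutant 1 or mutant 3, 2 without mutant 2). Of 30 genes of ribosome biogenesis, which Myc is known to drive, none rose and 1 fell (Utp20; 0 without control 1 or control 3) with TMM scaling (median 0.00), whereas 11 were called higher when libraries were scaled by size alone. Of 40 cytosolic ribosomal proteins none rose and 1 fell, Rpl5 (0 without control 1, control 2 or control 3).

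Several genes that adult hepatocytes hardly express rose in the tumours. Of 17 oncofetal and tumour markers 9 rose and none fell (4 without control 3), among them Igf2bp2, which binds RNA and is known from fetal tissue (2.85 ± 0.308), and Cd44, an adhesion receptor (2.15 ± 0.25). Golm1, a Golgi protein measured in serum of liver cancer patients, changed by 4.02 ± 0.689 (lost without control 3). Afp, alpha-fetoprotein, was at 0.494, 1.41 and 0.844 CPM in controls and 3.33, 4.88, 2.75 and 59.8 CPM in tumours and did not pass (log2 change 4.60 ± 1.39, adjusted p = 0.0562), although all 4 tumours lay above all controls and mutant 3 far above the rest. Gpc3, glypican-3, was at 0.864, 0.552 and 1.69 CPM in controls and 1.14, 1.03, 0.283 and 1.2 CPM in tumours and overlapped (log2 change -0.26 ± 0.643, adjusted p = 0.8).

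Of 16 bile duct and progenitor markers 7 rose and none fell (4 without control 2 or control 3, 12 without mutant 3). St14, the membrane protease matriptase, rose to similar levels in all tumours, from 1.67, 1.66 and 1.63 to 79.4, 116, 91.2 and 127 CPM (log2 change 6.01 ± 0.221, adjusted p = 0.000111). Cldn7, a claudin of ducts and gut, went from 0.494, 0.491 and 1.09 to 19.4, 23.7, 42.4 and 35.9 CPM (log2 change 5.59 ± 0.428, adjusted p = 0.000608). Elf3, an epithelial transcription factor, changed by 3.04 ± 0.402. The keratins that define ducts did not pass: Krt19 was at 2.53, 0.982 and 2.96 CPM in controls and 1.55, 1.36, 0.0404 and 0.602 CPM in tumours (log2 change -1.56 ± 0.932, adjusted p = 0.259). Krt7 was at 0.617, 1.17 and 1.69 CPM in controls and 1.32, 1.28, 0.162 and 0.88 CPM in tumours (log2 change -0.53 ± 0.715, adjusted p = 0.619). Epcam was at 1.97, 1.72 and 1.93 CPM in controls and 10.3, 15.9, 4.81 and 1.81 CPM in tumours and overlapped through mutant 3 (log2 change 1.83 ± 0.679, adjusted p = 0.0906). Of 15 genes of gut and stomach epithelium 7 rose (higher: 5 to 9 with 1 animal left out) and 3 fell. Vil1 and Cdhr2, given above, belong to this list. Muc13, a transmembrane mucin, went from 0.617, 1.23 and 0.422 to 125, 112, 30.7 and 313 CPM (log2 change 7.67 ± 1.08, adjusted p = 0.00525). Tff3, a trefoil peptide of goblet cells, went from 0.308, 0.921 and 0.181 to 34.4, 18, 211 and 61.3 CPM (log2 change 7.72 ± 1.11, adjusted p = 0.00572). The amino acid carrier Slc6a19 changed by 5.87 ± 0.845. The members that fell were Fabp2 (-3.54 ± 0.34), Lgals4 (-2.77 ± 0.241) and Anpep (-2.12 ± 0.25), which normal liver also expresses.

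Genes of the matrix around the cells were higher. Of 41 collagen and matrix genes 26 rose and none fell (median 2.03, 11 without control 3, 16 without control 1). Genes of the basement membrane were among those with the smallest p: Col4a1 went from 24.6, 38 and 35.2 to 353, 436, 560.3 and 268 CPM (log2 change 3.66 ± 0.349, adjusted p = 0.0011) and Col4a2 changed by 3.70 ± 0.391. Nid1, which links laminin to collagen IV, went from 14.7, 17.3 and 17.9 to 151, 174, 347 and 251 CPM (log2 change 3.94 ± 0.321, adjusted p = 0.000693). Fbln2 changed by 2.62 ± 0.193. Fibrillar Col1a1 went from 8.33, 37.4 and 15.9 to 125, 183, 186 and 92.7 CPM (log2 change 2.83 ± 0.59, adjusted p = 0.0179, lost without control 3). Of 20 genes of stellate cells and myofibroblasts, the makers of fibrillar collagen, 7 rose (higher: 2 without control 3, 4 without control 2) and 1 fell, Hand2 (lower: 0 without control 2, control 3, mutant 1, mutant 2 or mutant 3). Lrat, the defining gene of resting stellate cells, overlapped between groups at 19.5, 28 and 21.1 CPM in controls and 27.3, 25.5, 4.69 and 27.1 CPM in tumours. Acta2, actin of myofibroblasts, overlapped too, at 10.2, 7.06 and 15.8 CPM in controls and 11.9, 19.5, 3.6 and 10.1 CPM in tumours, and both were lowest in mutant 2.

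Of 45 genes of invasion and epithelial-mesenchymal change 27 rose and 2 fell (higher: 13 without control 3, 17 without control 1; lower: 1 without mutant 1). Mmp14, the membrane collagenase, went from 29.2, 23.8 and 30.7 to 90.1, 116, 171 and 119 CPM (log2 change 2.24 ± 0.242, adjusted p = 0.00158). The laminin chain Lamc1 changed by 2.10 ± 0.183, its receptor chain Itga6 by 3.42 ± 0.265, and Lgals3, galectin-3, by 4.53 ± 0.585. Cdh1 counts in this list as a rise, although loss of E-cadherin is what epithelial-mesenchymal change is known for. Lamb3, another laminin chain, went the other way, from 17.4, 21.2 and 17.7 to 1.78, 2.02, 1.74 and 2.08 CPM (log2 change -3.28 ± 0.21, adjusted p = 0.000402). Lgals1 was the other member that fell (log2 change -1.81 ± 0.467, adjusted p = 0.0326, lost without mutant 1, mutant 2 or mutant 3).

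Genes of capillary endothelium were higher. Normal hepatic sinusoids are lined by scavenger endothelium without a basement membrane, and tumour vessels are known to take on a capillary type. Of 25 genes of tumour and capillary endothelium 16 rose and none fell (median 1.43, 12 to 18 with 1 animal left out). Apln (chrX:48025146-48034853), the apelin peptide of sprouting tip cells, went from 0.123, 0.184 and 0 CPM in controls to 11.8, 9.5, 16.4 and 12 CPM in tumours (log2 change 6.93 ± 0.604, adjusted p = 0.000772). Esm1 (chr13:113209659-113218098), endocan, also a tip cell product, went from 0.555, 1.1 and 0.422 to 78.1, 33.3, 31.7 and 51.6 CPM (log2 change 6.05 ± 0.412, adjusted p = 0.000482). Cd34, a capillary marker that sinusoids lack, went from 1.67, 2.39 and 3.38 to 47.6, 35.4, 59.1 and 14.8 CPM (log2 change 3.96 ± 0.573, adjusted p = 0.00525), lowest in mutant 3. The adhesion molecule Mcam changed by 3.09 ± 0.364 and the Notch ligand Dll4 by 1.73 ± 0.213. The vessel destabiliser Angpt2 changed by 2.89 ± 0.424, and the pan-endothelial genes Pecam1 and Cdh5 by 1.43 ± 0.223 and 1.26 ± 0.221.

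Of 22 sinusoidal endothelium genes 4 fell (lower: 2 without control 3, 7 without mutant 1) and 1 rose, Flt4, a receptor of lymphatic vessels (higher: 0 without control 1, control 2 or control 3, 2 without mutant 2). The other members that fell beside those below were Plxnc1 and Ehd3. Dnase1l3 went from 81.6, 79.2 and 93.8 to 26.3, 31.6, 21.5 and 31.5 CPM (log2 change -1.62 ± 0.194, adjusted p = 0.00227) and Fcgr2b, an Fc receptor for immune complexes, changed by -1.24 ± 0.148. The defining markers Stab2 and Clec4g were not called. Stab2 was at 51, 48.5 and 42 CPM in controls and 29.2, 18.2, 5.09 and 52.4 CPM in tumours. Clec4g was at 54.6, 75 and 68.9 CPM in controls and 24, 19, 1.66 and 35.9 CPM in tumours, and both were lowest in mutant 2. Vegfa, the main vessel growth factor, was at 287, 321 and 222 CPM in controls and 326, 226, 150.2 and 139.8 CPM in tumours (log2 change -0.55 ± 0.31, adjusted p = 0.231). Its receptor Kdr was at 36.3, 38.7 and 42.2 CPM in controls and 57, 34.5, 32.8 and 34.8 CPM in tumours (log2 change -0.04 ± 0.175, adjusted p = 0.877). Neither gene was called and both overlapped.

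**Figure D3:**
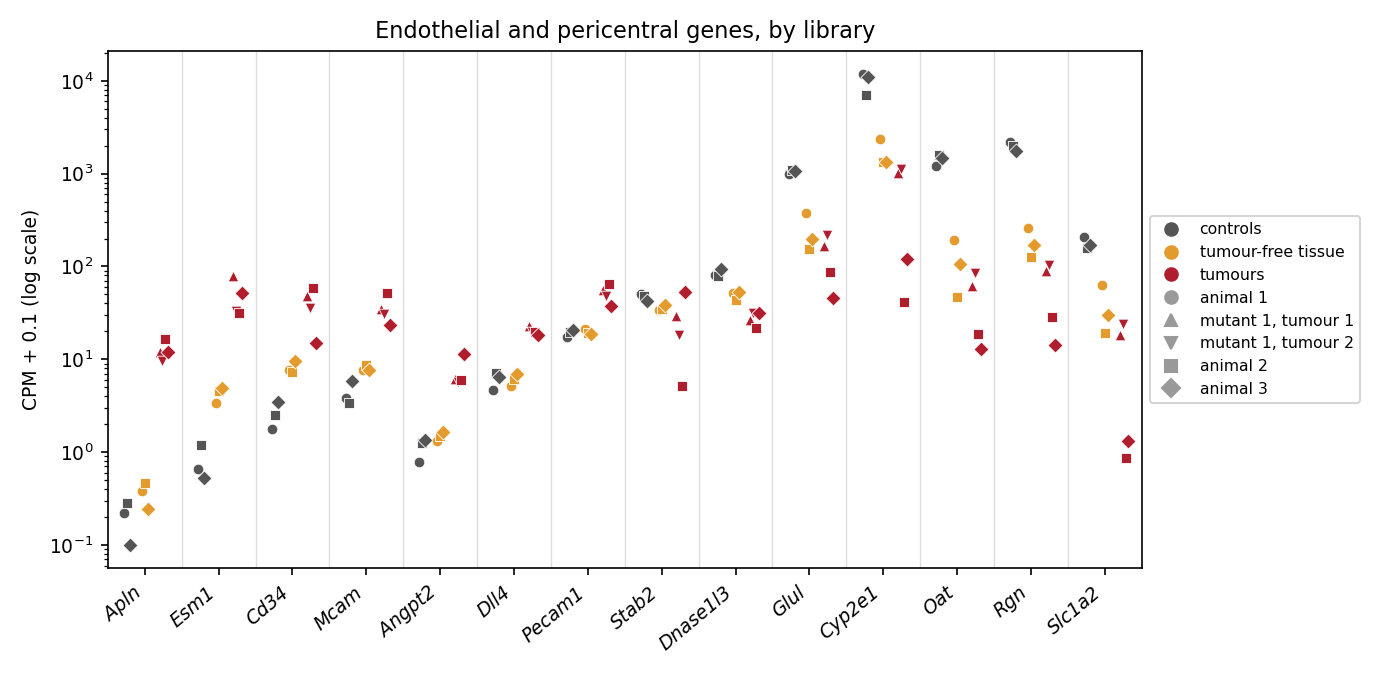
Level of 9 endothelial genes (Apln to Dnase1l3) and 5 pericentral genes (Glul to Slc1a2) in each library, as CPM + 0.1 on a log axis, with controls in grey, tumour-free tissue in orange, tumours in red and marker shape for the animal. Apln lies at 9.50 CPM or more in tumours and at most at 0.367 CPM elsewhere, and Slc1a2 lies at 0.767 and 1.20 CPM in the tumours of mutants 2 and 3 against 159 CPM or more in controls.

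Immune cell genes were tallied by cell type, and the lists were not tested against each other. Of 18 macrophage and Kupffer cell genes 5 rose (higher: 2 without control 1 or control 3) and 1 fell, Nr1h3 (lower: 3 without mutant 1). Those that rose were C1qa, C1qb, Csf1r, Adgre1 and Cd68. Cd68, a lysosomal protein of macrophages, went from 14.6, 17.3 and 11.2 to 41.8, 62.7, 158 and 129.9 CPM (log2 change 2.99 ± 0.429, adjusted p = 0.00458) and Adgre1, F4/80, changed by 1.41 ± 0.232. The resident Kupffer cell markers were not called: Clec4f was at 81.5, 103 and 84.2 CPM in controls and 57, 66.7, 2.34 and 102 CPM in tumours (log2 change -0.68 ± 1.03, adjusted p = 0.663). The tumour of mutant 2 was far below the others. Timd4 and Vsig4 were likewise lowest there, at 0.0404 and 0.727 CPM. Of 16 genes of lipid-associated and monocyte-derived macrophages 8 rose and none fell (3 without control 3, 4 without control 1). Cd63, a vesicle protein, went from 2.59, 8.47 and 3.26 to 221, 159, 115 and 129.6 CPM (log2 change 4.93 ± 0.531, adjusted p = 0.002). Cx3cr1, a chemokine receptor of monocyte-derived cells, changed by 3.56 ± 0.597. Of 12 dendritic cell and class II genes 7 rose and none fell (2 without control 3), with the invariant chain Cd74 at 1.80 ± 0.288 and the class II activator Ciita at 1.88 ± 0.336.

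Of 17 T and NK cell genes 2 rose, Havcr2 and Trac (0 without control 1, control 2, control 3 or mutant 1), where 13.8% of all genes did. Cd3e, a chain of the T cell receptor complex, was at 1.17, 0.798 and 1.51 CPM in controls and 1.23, 1.03, 2.67 and 0.556 CPM in tumours (log2 change 0.33 ± 0.606, adjusted p = 0.722). By edgeR none of 13 B and plasma cell genes was called, with 0 higher and 0 lower at an unadjusted p under 0.05 and 1 higher by DESeq2. None of 3 neutrophil genes was called by either tool, with 0 higher and 0 lower at that unadjusted p. Of 32 cytokine, chemokine and NF-kB genes 13 rose and Ccl9, Cxcl12, Il18 and Nfkbia fell (higher: 3 without control 3, 7 without control 1, 8 without control 2; lower: 2 without control 1, control 2, mutant 2 or mutant 3). The monocyte attractant Ccl7 went from 0.617, 0.614 and 0.302 to 5.74, 8.3, 16.2 and 7.27 CPM (log2 change 4.31 ± 0.5, adjusted p = 0.002). Il33, an alarmin, changed by 2.56 ± 0.435, Vcam1 by 1.59 ± 0.226, and Cxcl12, a retention signal for leukocytes, by -1.29 ± 0.215.

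Genes of the amino acid stress response were higher. ATF4 is the factor that raises amino acid synthesis and import when supply is short. Of 25 genes of the response 14 rose, and Cebpb and Atf5 fell (higher: 4 without control 1, 5 without control 3, 9 without control 2; lower: 0 without control 2 or control 3, 1 without control 1, mutant 1 or mutant 3). Asns, asparagine synthetase, went from 0.432, 1.04 and 0.543 to 59.3, 73.1, 23.3 and 64.6 CPM (log2 change 6.26 ± 0.577, adjusted p = 0.00128), lowest in mutant 2. Aldh18a1, the first enzyme of proline synthesis, went from 0.679, 0.921 and 0.844 to 14.8, 9.3, 12.4 and 12.2 CPM (log2 change 3.90 ± 0.251, adjusted p = 0.000402). The mitochondrial folate enzyme Mthfd2 changed by 2.89 ± 0.281. Trib3, a feedback target of ATF4, overlapped at 6.42, 8.16 and 12.4 CPM in controls and 5.15, 5.45, 19.4 and 9.59 CPM in tumours.

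Of 26 antioxidant genes under NRF2 9 rose, and Me1 and Aox1 fell (higher: 2 without control 1 or control 3, 3 without control 2; lower: 0 without control 2 or control 3, 1 without control 1, mutant 1 or mutant 2). Trim16 rose from 0.308, 0.491 and 0.844 to 20.2, 25.6, 17.5 and 61.1 CPM (log2 change 5.94 ± 0.674, adjusted p = 0.00258). The standard target Nqo1 was at 18.4, 27.9 and 23.1 CPM in controls and 16.9, 21.4, 57.9 and 348 CPM in tumours (log2 change 2.62 ± 1.01, adjusted p = 0.106), so only mutants 2 and 3 lay above controls. The summed level of the list was 5578 to 8571 CPM in controls, 3884 to 6140 CPM in 3 tumours and 22168 CPM in the tumour of mutant 3. Gclc, which limits glutathione synthesis, showed the same tumour apart, at 416, 418 and 519 CPM in controls and 372, 437, 383 and 2398 CPM in tumours. Of 29 genes of glycolysis 9 rose (higher: 3 without control 1 or control 3, 4 without control 2), and Pklr, Ldha and Pfkm fell (lower: 0 without control 1, control 2, control 3 or mutant 1). The fetal and tumour isozyme Pkm rose from 7.28, 11.7 and 9.65 to 27.4, 27.2, 87 and 89.8 CPM (log2 change 2.84 ± 0.483, adjusted p = 0.00868) and the phosphofructokinase Pfkp by 2.51 ± 0.312. The adult isozyme Pklr fell (log2 change -1.31 ± 0.309, adjusted p = 0.022, lost without control 1, control 2, control 3 or mutant 1). Hk2 was at 3.76, 15.7 and 8.81 CPM in controls and 39.3, 18.3, 17 and 29.7 CPM in tumours (log2 change 1.42 ± 0.503, adjusted p = 0.0833).

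Growth factor genes moved in both directions. Of 38 ligands and receptors of the EGF, FGF, HGF and IGF families and their relatives 11 rose (higher: 5 without control 1, control 2 or control 3) and 9 fell (lower: 4 without control 1 or control 3, 5 without control 2). Among ligands, Pdgfb, which recruits pericytes, went from 1.05, 3.74 and 2.59 to 14.9, 38.3, 40.8 and 22.6 CPM (log2 change 3.62 ± 0.475, adjusted p = 0.00344), and its relative Pdgfc changed by 2.41 ± 0.326. Btc and Tgfa, ligands of the EGF receptor, changed by 1.72 ± 0.283 and 1.26 ± 0.243. Fgf1 changed by -3.22 ± 0.482. Among receptors, Fgfr3 changed by -2.83 ± 0.374 and Egfr by -1.59 ± 0.385 (lost without control 1, control 3, mutant 2 or mutant 3). Of 35 TGF-beta genes 10 rose, and Inhbe and Id1 fell (higher: 6 without control 2 or control 3; lower: 1 without control 2, control 3, mutant 2 or mutant 3). The ligand Tgfb2 went from 0.74, 1.04 and 1.09 to 9.75, 18.2, 71.2 and 58.9 CPM (log2 change 5.65 ± 0.701, adjusted p = 0.0035). The receptor Tgfbr2 went from 41.5, 35.8 and 43.7 to 142, 226, 259.8 and 218 CPM (log2 change 2.46 ± 0.206, adjusted p = 0.000728). The feedback target Pmepa1 changed by 1.96 ± 0.311. Of 21 targets of the growth regulator YAP 8 rose and none fell (5 without control 1 or control 3), with Ajuba at 2.66 ± 0.386 and Crim1 at 2.14 ± 0.168. Of 15 genes of senescence and cell cycle inhibition 6 rose (4 to 6 with 1 animal left out) and Gdf15 fell (lower: 0 without control 1, control 2 or mutant 2, 2 without mutant 1). The inhibitor Cdkn2b went from 0.74, 0.43 and 0.302 to 3.69, 4.21, 3.31 and 7.74 CPM (log2 change 3.35 ± 0.523, adjusted p = 0.00534). Its relative Cdkn2c changed by 2.12 ± 0.277. Of 26 p53 targets 7 rose (higher: 3 without control 3, 4 without control 1) and Gdf15 and Ei24 fell (lower: 1 without control 2), with the death receptor Tnfrsf10b at 2.76 ± 0.449.

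Tumours were then set against the tumour-free tissue of the same 3 mutants, to see which genes set the tumour apart from the liver around it. Of 14566 tested genes 2 (0.0137%) were called, both higher in tumours. With the animal as a block 1 gene was called, Ces1e, an esterase (adjusted p = 0.049 by edgeR, with Apln at 0.0866 and Esm1 at 0.255). With DESeq2 435 were called, and leaving out any 1 of the 3 animals left none called. Apln was at 0.283, 0.367 and 0.141 CPM in tumour-free tissue and, as above, at 9.50 to 16.4 CPM in tumours (log2 difference 5.59 ± 0.384, unadjusted p = 1.8e-06, adjusted p = 0.0262). Esm1 was at 3.31, 4.4 and 4.76 CPM in tumour-free tissue against 31.7 to 78.1 CPM in tumours (log2 difference 3.48 ± 0.278, unadjusted p = 4.99e-06, adjusted p = 0.0364). At an unadjusted p under 0.05, 808 genes (5.55%) were higher and 646 (4.43%) lower.

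Both genes belong to the tumour and capillary endothelium list, of which 18 of 26 tested members were higher at an unadjusted p under 0.05 and none lower (median log2 difference 1.48, against 0.02 over all genes). Dll4 was at 5.1, 6.0 and 6.84 CPM in tumour-free tissue and 22.9, 19.5, 19.5 and 18.3 CPM in tumours (log2 difference 1.73 ± 0.179, unadjusted p = 2.73e-05, adjusted p = 0.0796), with no overlap. Emcn, a capillary sialomucin, was at 3.21, 2.04 and 3.25 CPM in tumour-free tissue and 38.4, 19.3, 15.9 and 11.7 CPM in tumours (log2 difference 2.74 ± 0.394, unadjusted p = 0.00024, adjusted p = 0.183). Angpt2 was at 1.23, 1.39 and 1.56 and 5.97, 5.62, 5.94 and 11.4 CPM in the same order (log2 difference 2.47 ± 0.35, unadjusted p = 0.000204, adjusted p = 0.183). For Dll4, Angpt2 and Pecam1 the tumour-free tissue overlapped with controls, with Pecam1 at 21, 18.9 and 18.5 CPM beside 17.3, 19.8 and 20.4 CPM in controls. The list shares the tumour libraries with the comparison above, so it is not a separate line of evidence for the tumours.

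Pericentral and Wnt genes differed in the other direction: 9 of 24 pericentral genes were lower at an unadjusted p under 0.05 and none higher (median -1.78), and 6 of 15 Wnt targets lower and 2 higher. Axin2 was at 13.5, 13.6 and 14.2 CPM in tumour-free tissue, slightly above the controls, and at 4.28, 5.54, 1.58 and 3.15 CPM in tumours (log2 difference -2.06 ± 0.396, unadjusted p = 0.00126, adjusted p = 0.224). Rnf43 was at 35.6, 37.1 and 45.6 and 18.3, 26.2, 18.8 and 18.5 CPM in that order (log2 difference -0.97 ± 0.166, unadjusted p = 0.000645, adjusted p = 0.213). Oxidative phosphorylation had none of 38 genes past that level in either direction. Fatty acid oxidation had 4 lower and 1 higher of 38. Amino acid catabolism had 15 lower and 1 higher of 44. Gut and stomach epithelium, where 7 of 15 genes rose against controls, had 0 higher and 3 lower of 16 against tumour-free tissue (median -0.24). Bile duct and progenitor markers had 5 higher and 2 lower of 17, and oncofetal and tumour markers 5 higher and 1 lower of 18. Mitosis had 12 higher and none lower of 38, and invasion and epithelial-mesenchymal genes 14 higher and 2 lower of 47. Matrix genes had 13 higher and 1 lower of 41, with Col4a1 at 104, 129 and 93.8 CPM in tumour-free tissue (log2 difference 1.92 ± 0.307, unadjusted p = 0.00043, adjusted p = 0.199). Asns stood at 137, 108 and 83.4 CPM in tumour-free tissue, above every tumour (log2 difference -1.07 ± 0.417, unadjusted p = 0.0391, adjusted p = 0.476).

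The tumours differed from one another, more so between animals than between the 2 tumours of mutant 1. Those 2 are the only pair from 1 animal, so the spread of differences within an animal is not known. Among protein coding genes of at least 5 CPM in either library, 66 (0.634%) differed over 4-fold between the 2 tumours of mutant 1, against 381 to 503 (3.60% to 4.77%) between tumours of different animals and 17 to 77 among the tumour-free samples. With 1 library a tumour these are values without a test. Rln3, the peptide relaxin-3, was at 514 and 224 CPM in the tumours of mutant 1 and at most at 0.33 CPM in the other libraries of this age. Obp2a, an odorant-binding protein, was at 267 and 484 CPM there and at most at 3.58 CPM elsewhere. Dnase1 was at 422 CPM in mutant 2 and at most 2.70 CPM elsewhere, and Slc22a12, the urate carrier of kidney, at 376 CPM in mutant 3. The tumour-free tissue of mutant 1 held Slc22a12 at 15.9 CPM, and no other library passed 0.43 CPM.

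Some of the widest ranges split the 2 tumours of mutant 1 as well. Pdk4, a pyruvate dehydrogenase kinase, was at 802, 56.7, 0.566 and 10.8 CPM, and Ripply3, a transcriptional repressor, at 440.2, 13.8, 1.09 and 2.04 CPM. Both were highest in tumour 1 of mutant 1. Mup3 was at 6352, 5257 and 5514 CPM in controls and 1794, 379.7, 4.2 and 20.8 CPM in tumours, so tumour 1 of mutant 1 kept most. Cyp1a1, the target of the aryl hydrocarbon receptor, was at 1.28, 1.61, 45.4 and 624 CPM, high in mutants 2 and 3. Spp1, osteopontin, was at 47.9, 125 and 66.2 CPM in controls and 2463, 3124, 381 and 52.7 CPM in tumours. Cd24a, a progenitor surface protein, was at 2.65, 2.45 and 4.95 CPM in controls and 226, 111, 6.02 and 1.58 CPM in tumours. Both were high in mutant 1 and not above the controls in mutant 3.

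**Figure D4:**
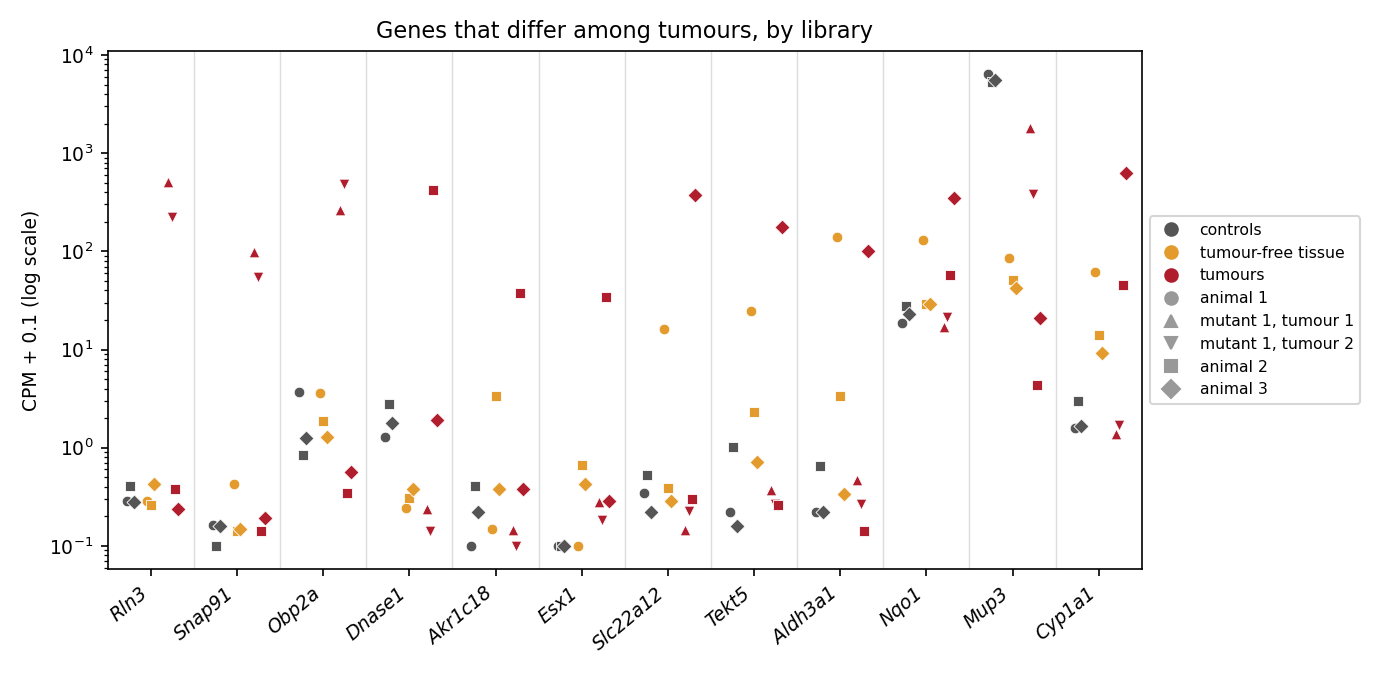
Level of 12 genes that differ among tumours in each library, as CPM + 0.1 on a log axis, with controls in grey, tumour-free tissue in orange, tumours in red and marker shape for the animal. Rln3 lies at 224 and 514 CPM in the tumours of mutant 1 and at most at 0.33 CPM in the other libraries, and Aldh3a1 lies at 100.4 CPM in the tumour of mutant 3 and at 138.8 CPM in the tumour-free tissue of mutant 1.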

How the data were processed

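RNA was sequenced as poly(A)-selected, dUTP-stranded libraries per the labels' protocols. The authors deposited 1 table of whole-number counts for 55421 genes. The submitters' processing notes name the build GRCm38 (mm10), RSEM, DESeq2 1.22.2, STAR 2.6.1a and bedtools 2.27.1. What each did, and which annotation was used, is not given in the sources used here, and the deposited counts may be rounded RSEM estimates. Of the gene identifiers, 54587 matched GENCODE M21 with their version and 55154 without it, and coordinates come from that annotation.

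Each library held 18977477 to 22062341 counts, and both tumours of mutant 1 were added up before the comparison. Genes passing edgeR's default filter on low counts were TMM-scaled and tested by quasi-likelihood with edgeR 4.0.16 in R 4.3.3, with Benjamini-Hochberg adjustment and a threshold of 0.05. Tumours against tumour-free tissue were fitted the same way, without the animal as a block. The tissues come from the same animals, and deviations from the group means correlated at r = 0.154, 0.293 and 0.00449 for the 3 animals. Between different animals r ran from -0.222 to 0.0849, the highest for the tumour of mutant 3 with the tumour-free tissue of mutant 1. Alternatives used DESeq2 1.42.0, limma voom 3.58.1, other scalings and filters, and left out animals. The fits were tested on simulated data.

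The members and gene lists were chosen with earlier results of these data known. Genes were named by rule: Jun, Fosl2 and Myc. Then came the 15 largest rises and falls among called protein coding genes with at least 5 CPM in the higher group and no overlap of libraries, up to 4 called genes of each list in each direction by p, each list's textbook genes, and the 10 largest ranges among tumours. Genes named without a log2 change to complete a count, and Spp1, Cd24a, Nqo1, Gclc and the textbook genes, were chosen after their values were seen. A few genes picked this way are left out of the text. Genes with 3 or fewer counts in a group are given as a ratio of pooled levels with an exact 95% interval, or as a bound from 3 counts in that whole group, and both cover counting error only. The promoter windows are RefSeq's, and 10792 of 14329 tested symbols matched.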

Additional observations from a re-analysis of the deposited data

Results flagged for a closer look

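Apln and Esm1 were the genes called between tumours and the tumour-free tissue of the same mutants. They are listed because edgeR called that difference, so their p-values are those that picked them and no further evidence. The log2 difference of Apln, the apelin peptide, was 5.59 (edgeR adjusted p = 0.0262), and it was higher in 4 of 4 tumours than in any tumour-free sample. The log2 difference of Esm1, endocan, was 3.48 (edgeR adjusted p = 0.0364), again with all 4 tumours above. Neither was called when 1 of the 3 animals was left out, nor with the animal as a block (adjusted p = 0.0866 for Apln and 0.255 for Esm1).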

How the results depend on the processing

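Of the comparison with controls, 5482 genes were called when libraries were scaled by size alone (4664 higher, 818 lower), 6612 in 1 fit over all 5 groups of the series, and 1743 without both animals numbered 1. With 1 animal left out the count lay between 1419 (without control 3) and 3566 (without mutant 3). The remaining alternatives, DESeq2, limma voom, RLE size factors, no filter, protein coding genes only and either tumour of mutant 1 alone or apart, gave 3129 to 4493 calls. The numbers shared by controls and mutants do not pair the animals (r = 0.130, -0.0251 and -0.0290 for deviations of same-numbered samples), and with the number as a replicate block 2727 genes were called. Of tumours against tumour-free tissue, DESeq2 called 435 genes, no filter 47, limma voom 0 (chosen after seeing the data, 1423 at an unadjusted p under 0.05), and the animal as a replicate block 1, neither Apln nor Esm1. Each fit without 1 animal called 0, with or without the block (the blocked ones chosen after seeing the data), while 776 to 1376 genes without the block and 839 to 1724 with it had an unadjusted p under 0.05. The Alb difference of -1.72 percentage points was -1.735 with protein coding counts as the denominator (exact permutation p = 0.1). Depth limits genes of few counts, where ratios carry wide intervals.

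Among genes not called, the log2 change took the other sign in some alternatives. Scaling by library size alone gave Gpc3 0.19 and Kdr 0.42. Cyp3a11 was at -0.0190 with limma voom and -0.0523 with the replicate block. With tumour 1 of mutant 1 alone Hnf4a was at -0.00563 and Kdr at 0.10, and with 4 separate tumour libraries Kdr was at 0.0307. With 1 animal left out the change ranged from -0.39 to 0.73 for Cd3e, from -0.71 to 0.66 for Cyp3a11, from -0.57 to 0.28 for Gpc3, from -0.138 to 0.31 for Hnf4a and from -0.17 to 0.0721 for Kdr.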

Other observations

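Further gene groups stood as follows in tumours against controls, beside 13.8% of all genes higher and 11.3% lower. Of 20 iron handling genes Hamp, Hamp2 and Tfr2 fell and Meltf rose (higher: 2 without mutant 1, mutant 2 or mutant 3). Hamp2, a copy of the hepcidin gene, went from 76.1, 122 and 30.7 to 0.547, 0.62, 0.242 and 0.788 CPM (log2 change -7.13 ± 0.709, adjusted p = 0.00184), and Tfr2, an iron sensor upstream of hepcidin, from 622, 489.5 and 584 to 119, 174, 199 and 166 CPM (log2 change -1.71 ± 0.224, adjusted p = 0.00297). Hamp and Hamp2 are near-identical, so reads may be split between them. Of 16 genes of gluconeogenesis and glycogen 4 fell and none rose (2 without control 1 or control 3), with the glycogen synthase Gys2 at -1.97 ± 0.251 and the glucose-6-phosphate carrier Slc37a4 at -1.93 ± 0.257. Of 34 interferon-stimulated genes 6 rose (4 to 7 with 1 animal left out), and Igtp and Cxcl9 fell (lower: 4 without control 2). Oasl1, a sensor-like protein of antiviral defence, went from 20.7, 18.2 and 22.5 to 61.9, 92.6, 109 and 274 CPM (log2 change 2.92 ± 0.488, adjusted p = 0.00788).

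Of 29 keratins, claudins and cadherins 11 rose (6 without control 1, 7 without control 3) and Cldn12 fell (lower: 0 without control 1, control 3, mutant 1, mutant 2 or mutant 3). Cldn1, a tight junction claudin, went from 25.9, 27.8 and 39.1 to 132, 139, 147 and 259 CPM (log2 change 2.55 ± 0.318, adjusted p = 0.00259). Of 20 hypoxia genes 5 rose (2 without control 1, 3 without control 2 or control 3) and Bnip3 fell (lower: 0 without control 1, control 2 or control 3, 2 without mutant 3), with the glucose carrier Slc2a1 at 1.10 ± 0.15. Cfd, adipsin, an adipocyte protease, had 253 counts in controls and none in tumours (at least 159-fold lower against a floor of 3 counts over the group).

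A rule written after the values were seen took genes of at least 20 CPM in every tumour of 1 animal and under 1 CPM in all other tumours and in controls. It found 5 genes in mutant 1 (Rln3, Snap91, Medag, Dlk1 and Slco4c1), 4 in mutant 2 (Akr1c18, Esx1, Pcyt1b and Pglyrp1) and 9 in mutant 3 (Slc22a12, Tekt5, Serpinb9e, Aldh3a1, Popdc3, Sstr5, Spatc1, Apela and Nyx). All 9 genes of mutant 3 stood at 1 CPM or more in the tumour-free tissue of mutant 1, with a median of 10.1 CPM and Aldh3a1 highest at 138.8 CPM. The tumour-free tissue of mutant 2 held 3 of them at that level and that of mutant 3, the animal of the tumour, none. Tekt5, a tektin of sperm flagella, stood at 178.7 CPM in the tumour of mutant 3, at 24.8 CPM in the tumour-free tissue of mutant 1 and at 0.613 CPM in that of mutant 3. Of the genes of mutants 1 and 2, 1 each stood at 1 CPM or more in the tumour-free tissue of the same animal, Dlk1 at 3.78 CPM in that of mutant 1 and Akr1c18 at 3.22 CPM in that of mutant 2, and neither reached it in the other tumour-free samples. These are values from single libraries, with no test, and their cause was not tested.

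The early response genes differed among controls. Their summed level was 4942 CPM in control 1, 469 CPM in control 2 and 299.5 CPM in control 3, and it lay between 842 and 2490.4 CPM in the tumours.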
